A study of Mus musculus with 7 samples.

Results

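The transcripts described are those of 27 genes of the synapse and the axon: 14 genes of the synaptic vesicle and its release machinery, 9 genes of the postsynaptic density and of synaptic adhesion, the 3 neurofilament subunits, and Trim9, which encodes a neuronal ubiquitin ligase that binds the release protein SNAP25. They were chosen by name through the gene symbols of the platform annotation, 27 of 16593 named genes, and all 27 had a probe, 41 of the 25697 on the array. Hypothalamus RNA, from the brain region that controls feeding, body temperature and pituitary hormones, was hybridised to 7 Illumina bead arrays. All 7 samples came from male C57BL/6 mice aged 13 weeks whose genotype label is BGN knockout, so the controls lack biglycan, a matrix proteoglycan, as well. The untreated group held 2 arrays, replicates 1 and 3, and the series text says that another was removed as an outlier. The DHA group held 5 arrays, replicates 1 to 5. Its mice ate chow to which 0.5% flaxseed oil and 1.2% of an oil taken from docosahexaenoic acid (DHA) capsules had been added, over about 6 weeks; DHA is an omega-3 fatty acid of neuronal membranes. There was no group on a matched oil, so DHA, flaxseed oil and added fat cannot be told apart, and no wild-type mice were among the 7 samples. The series text counts mice per group, but the labels tie no sample to an animal; if samples shared one, the p-values would measure a spread that is partly technical.

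As background, a presynaptic terminal fills vesicles with transmitter, tethers them at the active zone and fuses them with the plasma membrane when calcium enters. Fusion is driven by the SNARE proteins SNAP25, syntaxin 1 and VAMP, clamped by complexins and triggered by synaptotagmins, while synaptophysin, SV2 and the synapsins belong to the vesicle itself. Across the cleft, PSD-95 (Dlg4), Homer and Shank proteins hold glutamate receptors and signalling enzymes in place, and neurexins bind neuroligins to join both sides. Neurofilaments are the intermediate filaments that set the calibre of large axons.

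The arrays had median unnormalized signals between 167.4 and 189.5 and detected between 13873 and 14534 probes, with both measures higher in each of the 5 DHA arrays than in either untreated array. Of 22 genes listed as hypothalamic markers, 20 were on the array. The peptides Npy, Pomc, Hcrt, Pmch, Avp and Oxt and the transcription factors Nkx2-1 and Nkx2-4 were detected in all 7 arrays. Of the other transcription factors, Nr5a1 was detected in at most 3 arrays and Hmx2 and Rax in at most 1. Crh and the transcription factors Sim1, Otp and Hmx3 were detected in 0 arrays. Marker lists of other brain regions, of the meninges and of glia and vessels separated some arrays from the rest. A list is summarised here as its mean deviation, the mean over its tested genes of the log2 signal minus the gene's own mean over the 7 arrays. Striatal neuron markers, of which 13 of 18 were tested, had a mean deviation of 0.603 in untreated replicate 1 and of -0.033 in untreated replicate 3. With DHA they lay between -0.196 and -0.05, so the groups did not overlap, and all 13 tested genes were lower with DHA. Cortex and hippocampus markers, of which 12 of 20 were tested, stood at 0.572 and 0.568 in DHA replicates 2 and 5 and between -0.297 and -0.094 elsewhere. Meningeal markers, of which 16 of 19 were tested, were at -0.552 in untreated replicate 1, at -1.543 in untreated replicate 3, and from -0.108 to 0.646 with DHA. Astrocyte markers were higher in all DHA arrays (-0.037 to 0.09) than in the untreated arrays (-0.165 and -0.046), with 12 of 14 genes higher, and 13 of 15 endothelium and pericyte markers were higher, with overlapping groups. General neuron markers stayed between -0.101 and 0.092, with overlapping groups, and 5 of the 14 tested were higher and 9 lower with DHA. In tissue RNA, fewer neurons and less RNA per neuron cannot be told apart.

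The comparison asked whether the hypothalamic transcripts of the synapse differed between the diets. None of the 34 tested member probes passed limma's test at an adjusted p of 0.05, against 0 of 15284 probes (0%) on the whole array, and 3 of the 34 had an unadjusted p under 0.05, against 10.3% of all tested probes. Of the 24 genes with a tested probe, 12 were higher and 12 lower with DHA, and the median difference, DHA minus untreated, was -0.0072 log2, against -0.0081 over all 10448 tested genes. The sizes were also ordinary: the median absolute difference was 0.108 for the members and 0.127 for all tested genes. The diet groups did not overlap for 4 of the 24 genes (16.7%), where 17.4% of all tested genes did not overlap. Of these 4 genes 2 were higher, against 8.65% of all tested genes, and 2 lower, against 8.79%. By probe, 4 of the 34 were higher without overlap, against 7.89% of all tested probes, and 3 lower, against 9.06%.

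**Figure D1:**
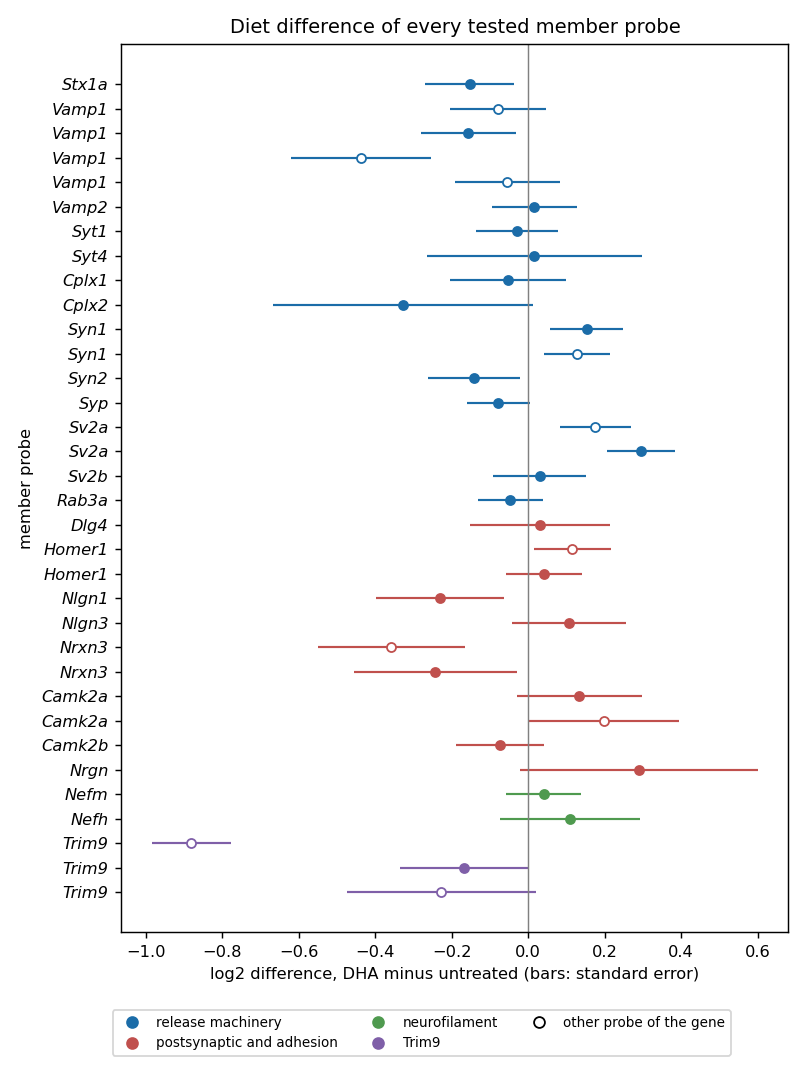
Log2 difference (DHA minus untreated, x axis) with its standard error for the 34 tested member probes, coloured by class; filled points are the brightest tested probe of a gene and open points its other probes. Most points lie within 0.3 of zero, and the Trim9 probe at -0.88 lies farthest out.

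The classes were described separately, with no test between them. Release machinery genes had 5 of 13 tested members higher and 8 lower, with a median of -0.047 and a range from -0.33 to 0.29. Postsynaptic and adhesion genes had 5 of 8 higher and 3 lower, with a median of 0.036 and a range from -0.24 to 0.29. That median was -0.099 without untreated replicate 3, 0.154 without untreated replicate 1 and -0.076 with the replicate number as a block, so its direction depended on single arrays. Both tested neurofilament genes were higher, by 0.04 and 0.11. These values are a description, because the list received no test of its own. By array, the release machinery had mean deviations of 0.086 and -0.034 in untreated replicates 1 and 3 and of -0.118, 0.028, 0.051, -0.073 and 0.060 in DHA replicates 1 to 5. The postsynaptic and adhesion genes had 0.096 and -0.106 in the untreated arrays and -0.081, 0.150, -0.035, -0.137 and 0.111 in the DHA arrays. The neurofilament genes had -0.001 and -0.106, against 0.038, -0.238, 0.226, 0.043 and 0.038. The groups overlapped in each class, although untreated replicate 1 was the highest array for the release machinery. With arrays scaled to a common median instead of quantiles, the release machinery median was -0.14. It ranged from -0.079 to 0.018 with 1 array left out, so its direction depended on single arrays too. The lowest and highest neurofilament values, in DHA replicates 2 and 3, fell on the arrays where the oligodendrocyte markers were also lowest (-0.178) and highest (0.276), and the hypothalamic markers were lowest in DHA replicate 3 (-0.192) and at 0.092 in DHA replicate 2. The low value in DHA replicate 2 came mostly from Nefh, at -0.44 from its own mean, with Nefm at -0.04. Nefm was lowest in untreated replicate 3 (-0.11). The part of tissue makeup in the neurofilament values was not tested.

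**Figure D2:**
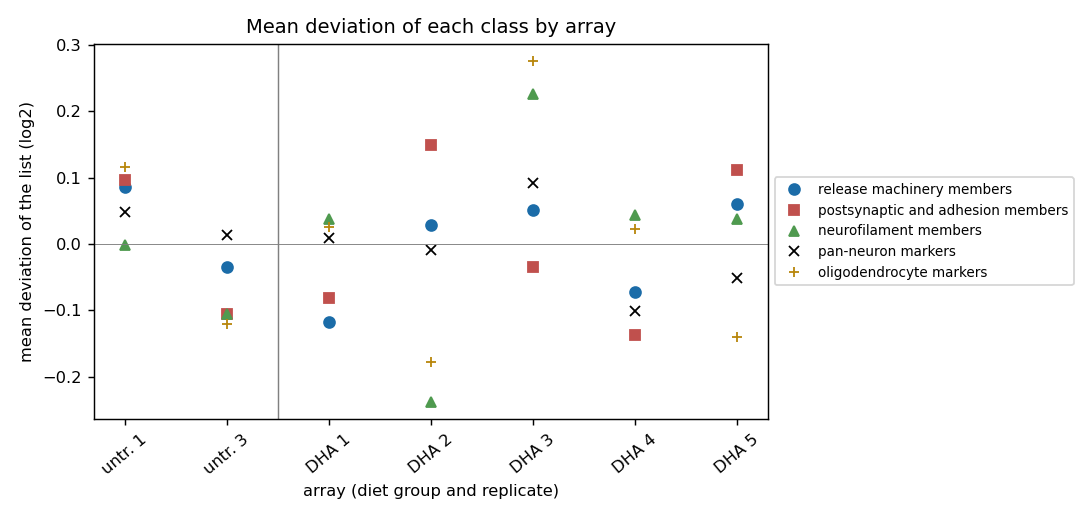
Mean deviation (log2, y axis) of the release machinery, postsynaptic and adhesion, and neurofilament members in each array, with the general neuron and oligodendrocyte marker lists. The diet groups overlap in every list shown, and the neurofilament and oligodendrocyte points are both highest in DHA replicate 3 (0.226 and 0.276).

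The SNARE genes came first in the release machinery. Snap25, whose product is the plasma membrane SNARE and which was named as a marker of this gene group, could not be measured. Its single probe (ILMN_2741123) had unnormalized signals between 133 and 146 and detection p-values between 0.226 and 0.984, so it was detected in 0 of 7 arrays and was not well above background. The other markers of the group, Syp and Dlg4, were detected in every array. The signal of the Snap25 probe therefore gives no level for the gene. Syntaxin 1A, Stx1a (ILMN_2700608), the partner of SNAP25 in the plasma membrane, had log2 signals of 11.20 and 11.24 in the untreated arrays and of 11.01, 11.24, 10.96, 10.92 and 11.19 in the DHA arrays. The groups overlapped, and the difference was -0.15 (SE 0.12, 95% interval -0.42 to 0.12, limma adjusted p 0.679). Vamp2, the principal vesicle SNARE of the forebrain, lay between 12.80 and 13.11 and differed by 0.02 (SE 0.11). Vamp1, the form of spinal and hindbrain neurons, differed by -0.16 (SE 0.12) on its brightest probe. Its other probes differed by -0.08, -0.05 and -0.44. The probe at -0.44 (ILMN_3060333, SE 0.18), detected in 6 of 7 arrays, read 5.60 and 5.85 in the untreated arrays and 5.21, 5.40, 5.01, 5.13 and 5.68 in the DHA arrays, so DHA replicate 5 lay inside the untreated range (limma adjusted p 0.476).

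None of the calcium sensors and fusion clamps passed the test, and the groups overlapped for all 4. Synaptotagmin 1, Syt1, the sensor of fast release, lay between 11.75 and 12.03 and differed by -0.03 (SE 0.11, 95% interval -0.28 to 0.22). Synaptotagmin 4, Syt4, which sits on dense-core vesicles of neuroendocrine cells, read 12.74 and 12.60 in the untreated arrays and 11.92, 12.79, 13.13, 12.79 and 12.77 in the DHA arrays. DHA replicate 1 was the low array and DHA replicate 3 the high one, a range of 1.21 log2, while the diet difference was 0.02 (SE 0.28). Complexin 2, Cplx2 (ILMN_1238436), which clamps and promotes fusion, had the widest range of the members, 1.30 log2. Its probe read 8.89 and 8.29 in the untreated arrays and 7.87, 8.80, 8.56, 7.59 and 8.49 with DHA, and untreated replicate 1 was the highest array. The limma adjusted p was 0.766 for a difference of -0.33 (SE 0.34, 95% interval -1.11 to 0.46). It was -0.03 without untreated replicate 1 and -0.63 without untreated replicate 3. Its paralogue Cplx1 stood at 13.85, 13.88 and 13.76 in untreated replicate 1 and DHA replicates 3 and 5, and between 13.48 and 13.52 in the other arrays, with a diet difference of -0.05 (SE 0.15).

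The 4 genes whose diet groups did not overlap, a share of the members (16.7%) close to that of all tested genes (17.4%), encode vesicle proteins. Sv2a, a vesicle glycoprotein that is the binding site of the antiepileptic levetiracetam, had the smallest p of the members by brightest probe. That probe (ILMN_2702887) read 12.06 and 11.86 in the untreated arrays and 12.27, 12.28, 12.24, 12.26 and 12.24 in the DHA arrays. Its other probe (ILMN_1213495) read 12.09 and 11.98 against 12.33, 12.24, 12.15, 12.15 and 12.16. On both probes all 5 DHA arrays lay above both untreated arrays, and untreated replicate 3 was the lowest array. The differences were 0.29 (SE 0.09) and 0.18 (SE 0.09), with limma adjusted p of 0.356 and 0.554, so neither passed. Untreated replicate 3 was also the array with the lowest meningeal markers (-1.543), and the part of tissue makeup in the Sv2a values was not tested. Without that array the difference on the brightest probe was 0.19.

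Synapsin 1, Syn1, which tethers vesicles to actin in the reserve pool, was likewise higher in every DHA array on both of its probes. The brightest (ILMN_1235133) read 13.40 and 13.39 in the untreated arrays and 13.45, 13.52, 13.49, 13.69 and 13.57 in the DHA arrays, a difference of 0.15 (SE 0.10, limma adjusted p 0.616), and the other differed by 0.13 (SE 0.09). The brightest probe differed by only 0.04 when a common median replaced quantile scaling. Synapsin 2, Syn2 (ILMN_1215972), read 12.19 in both untreated arrays and 12.12, 12.09, 12.15, 11.78 and 12.12 in the DHA arrays. All DHA arrays were lower, DHA replicate 4 by the most. The difference was -0.14 (SE 0.12, limma adjusted p 0.715), and -0.073 without DHA replicate 4. Synaptophysin, Syp (ILMN_2630182), a common marker of vesicle membranes, read 14.63 and 14.61 against 14.54, 14.54, 14.49, 14.60 and 14.56. Every DHA array was lower by a small amount, and the difference was -0.08 (SE 0.08, 95% interval -0.27 to 0.11, limma adjusted p 0.768), or -0.21 with arrays scaled to a common median (limma adjusted p 0.49). The small GTPase Rab3a, which marks vesicles ready for docking, lay between 13.39 and 13.50 and differed by -0.05 (SE 0.08). Sv2b, a paralogue of Sv2a, differed by 0.03 (SE 0.12) and is described with Camk2a and Nrgn.

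**Figure D3:**
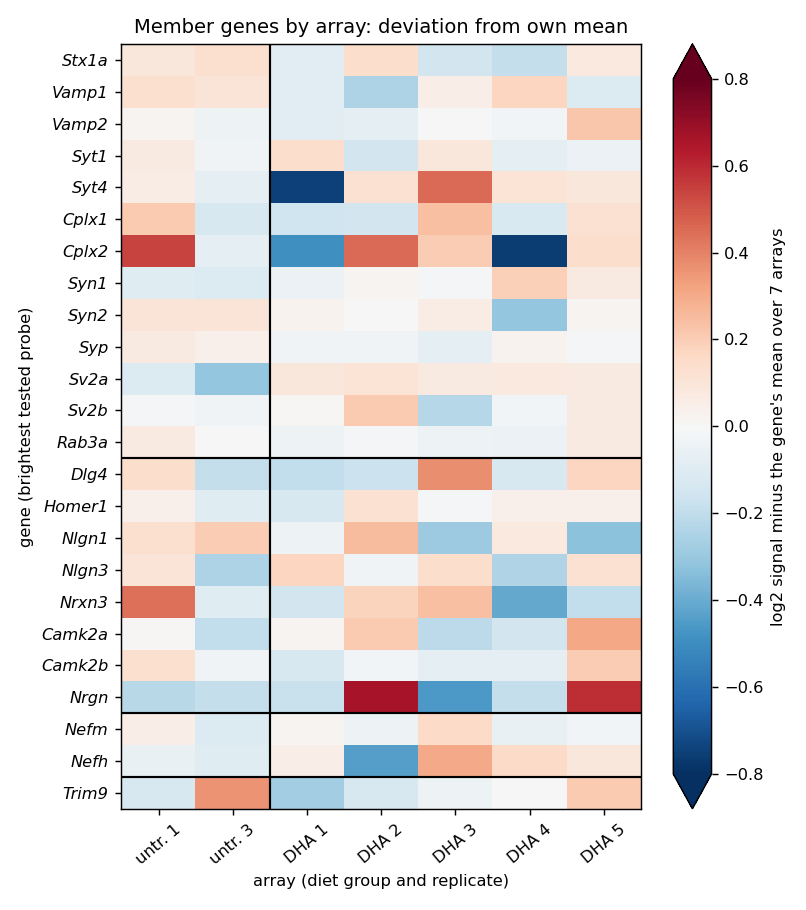
Log2 signal of the brightest tested probe of 24 member genes (rows, grouped by class with black lines) in the 7 arrays (columns), as deviation from the gene's own mean over the arrays. Sv2a is low in both untreated arrays, Nrgn is high in DHA replicates 2 and 5 (11.11 and 11.04 log2), and Cplx2 and Syt4 have the widest ranges (1.30 and 1.21 log2).

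The promoters of Sv2a and Syn1 are shown because these were the members higher in all DHA arrays on each probe, that of Trim9 because 1 of its probes differed most, and that of Nrgn because it varied most between arrays among the postsynaptic genes. Each window runs from 250 bases before to 50 bases after a gene start and was taken from RefSeq with the GRCm38.p6 build, which held windows for 18 of the 27 members. In order the windows lie at chr3:96180977-96181276 on the + strand, chrX:20920869-20921168 on the - strand, chr12:70347565-70347864 on the - strand and chr9:37552696-37552995 on the - strand, and they are written 5' to 3' along the gene. Capitals mark matches on either strand to the cyclic AMP response element TGACGTCA, the GC box GGGCGG, and CAGCACC, the left part of the RE1 element that binds the neuronal gene repressor REST.
Sv2a: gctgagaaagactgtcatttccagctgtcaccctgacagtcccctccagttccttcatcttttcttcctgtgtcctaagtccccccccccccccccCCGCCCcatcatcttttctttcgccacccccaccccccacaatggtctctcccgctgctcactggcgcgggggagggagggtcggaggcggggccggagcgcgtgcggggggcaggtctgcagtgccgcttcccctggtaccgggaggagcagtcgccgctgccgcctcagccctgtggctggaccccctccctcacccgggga
Syn1: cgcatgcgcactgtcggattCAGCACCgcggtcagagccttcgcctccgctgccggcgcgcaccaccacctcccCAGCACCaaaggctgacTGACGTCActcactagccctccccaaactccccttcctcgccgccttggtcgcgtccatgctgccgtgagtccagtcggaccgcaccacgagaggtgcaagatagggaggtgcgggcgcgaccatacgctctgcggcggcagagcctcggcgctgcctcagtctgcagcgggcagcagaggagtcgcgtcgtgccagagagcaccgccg
Trim9: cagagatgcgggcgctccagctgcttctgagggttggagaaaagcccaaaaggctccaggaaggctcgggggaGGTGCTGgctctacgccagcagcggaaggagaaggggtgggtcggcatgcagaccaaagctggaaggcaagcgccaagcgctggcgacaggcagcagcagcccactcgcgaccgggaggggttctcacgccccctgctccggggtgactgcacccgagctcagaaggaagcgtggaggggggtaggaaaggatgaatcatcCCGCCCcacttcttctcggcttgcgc
Nrgn: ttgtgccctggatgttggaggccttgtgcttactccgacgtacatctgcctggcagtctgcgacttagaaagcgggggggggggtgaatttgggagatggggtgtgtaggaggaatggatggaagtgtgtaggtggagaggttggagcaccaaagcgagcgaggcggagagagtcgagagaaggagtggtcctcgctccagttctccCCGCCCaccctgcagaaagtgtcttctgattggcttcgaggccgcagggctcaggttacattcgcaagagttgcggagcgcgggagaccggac

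The Syn1 window held 1 match to TGACGTCA and 2 to CAGCACC, the Trim9 window 1 to CAGCACC and 1 to GGGCGG, and the Sv2a and Nrgn windows 1 to GGGCGG each. Over the 30 windows of the members, TGACGTCA was present in 3.33%, GGGCGG in 46.7% and CAGCACC in 13.3%. The shares among all 32851 windows were 1.79%, 35.7% and 7.14%. The GC content was 57.8% in the median member window and 52.7% in the median of all windows. No motif was shared by Sv2a and Syn1. The full RE1 element was also searched for, and it was present in 0 of the 30 member windows and in 4 of all 32851. The marked matches in Syn1 and Trim9 are therefore to its left part only, and binding by REST was not tested.

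On the postsynaptic side the scaffold genes differed little between diets. Dlg4 (ILMN_2710764), which encodes PSD-95, read 9.33 and 9.0 in the untreated arrays and 8.99, 9.02, 9.56, 9.06 and 9.35 in the DHA arrays. The groups overlapped fully, and the difference was 0.03 (SE 0.18, 95% interval -0.39 to 0.45, limma adjusted p 0.967). Homer1, which links metabotropic glutamate receptors to intracellular calcium stores, had 2 tested probes that differed by 0.04 (SE 0.10) and 0.12 (SE 0.10). Its other 2 probes were detected in at most 1 array and were not tested. Shank2, a scaffold that links PSD-95 complexes to Homer, had 1 probe with unnormalized signals between 137.4 and 152.9 and was detected in 0 of 7 arrays.

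Of the 3 adhesion genes 2 had a lower and 1 a higher mean with DHA, and none passed the test. Nrxn3, a presynaptic neurexin, differed by -0.24 (SE 0.21) and -0.36 (SE 0.19) on its 2 probes. Its brightest probe read 9.91 and 9.37 in the untreated arrays and 9.31, 9.65, 9.70, 9.06 and 9.26 in the DHA arrays, and the other 7.61 and 6.87 against 7.01, 6.74, 6.78, 6.85 and 7.04. Untreated replicate 1 was the highest array on both probes. That array also carried the raised striatal markers, among them the dopamine receptor Drd1 (8.79, against 6.32 to 7.66 in the other arrays) and the phosphatase inhibitor Ppp1r1b (11.39, against 9.51 to 10.12). Without it, whose removal had to raise these values because it was the highest array, the Nrxn3 differences were 0.02 and 0.01. With another single array left out they reached -0.51 and -0.73. The part of striatal tissue in the Nrxn3 values was not tested. The ligands of neurexins, Nlgn1 and Nlgn3, differed by -0.23 (SE 0.17) and 0.11 (SE 0.15), and their groups overlapped.

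Calcium and calmodulin signalling genes of the spine separated individual DHA arrays. Neurogranin, Nrgn (ILMN_2645071), which binds calmodulin in dendrites of forebrain neurons, read 10.23 and 10.27 in the untreated arrays and 10.27, 11.11, 10.00, 10.26 and 11.04 in the DHA arrays. Camk2a, the alpha subunit of the calcium and calmodulin-dependent kinase II of excitatory forebrain synapses, read 11.10 and 10.88 against 11.11, 11.30, 10.88, 10.93 and 11.40 on its brightest probe (ILMN_2596479). A second Camk2a probe (ILMN_2677393) read 9.56 and 9.38 against 9.61, 9.99, 9.39, 9.40 and 9.97, and another was detected in 1 array and not tested. Sv2b (ILMN_2714589) read 10.95 and 10.94 against 10.98, 11.17, 10.74, 10.95 and 11.03. DHA replicates 2 and 5 were the highest arrays for Nrgn, for both Camk2a probes and for Sv2b, and DHA replicate 3 was at or near the bottom of each.

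The same arrays carried the raised cortex and hippocampus markers. The vesicular glutamate transporter of cortical neurons, Slc17a7, read 9.64 and 9.98 in DHA replicates 2 and 5 and between 5.76 and 7.23 in the other 5 arrays, and the cortical transcription factor Tbr1 read 7.55 and 6.97 there and between 4.74 and 6.51 elsewhere. DHA replicates 2 and 5 were the highest pair of arrays for 6 of the 12 tested cortex and hippocampus markers and for 3 of the 24 tested members, Sv2b, Camk2a and Nrgn, and for 1 of 16 meningeal markers. Over all 10448 tested genes it was highest for 4.55%. The pair was chosen from the values of these members and markers, so the counts are a description, and the part of cortical tissue in the member values was not tested. Because Nrgn falls into separate clusters of arrays, no correlation over arrays is given for it. The diet differences of Nrgn, 0.29 (SE 0.31, limma adjusted p 0.775), and of Camk2a, 0.13 (SE 0.16) and 0.20 (SE 0.20), did not pass. Without DHA replicates 2 and 5, whose removal had to lower these values because they were the highest arrays, they were -0.07, -0.02 and -0.0068, and that of Sv2b was -0.056. The beta subunit Camk2b, which is less restricted to the forebrain, differed by -0.07 (SE 0.12).

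**Figure D4:**
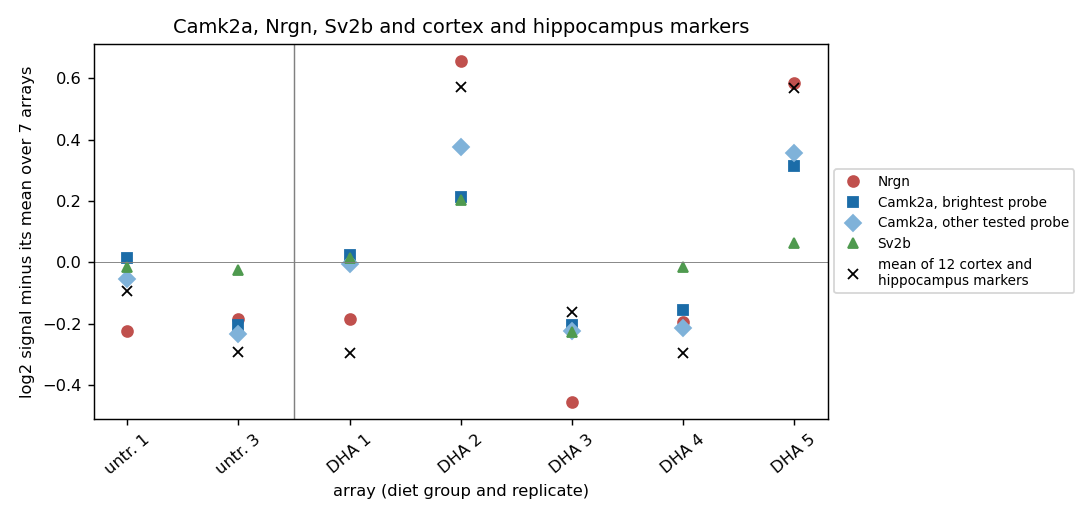
Log2 signal minus its mean over the 7 arrays (y axis) for Nrgn, the 2 tested Camk2a probes and Sv2b in each array, with the mean deviation of 12 cortex and hippocampus markers as crosses. The points of DHA replicates 2 and 5 lie above all others in every series, with the marker list at 0.572 and 0.568.

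The neurofilament genes were measured in part. Nefl, the light subunit on which the filament is built, had 1 probe with unnormalized signals between 130.1 and 145.1 and detection p-values between 0.401 and 0.972, and was detected in 0 of 7 arrays. The medium subunit Nefm read 10.69 and 10.53 in the untreated arrays and 10.66, 10.60, 10.79, 10.58 and 10.62 in the DHA arrays, a difference of 0.04 (SE 0.10, 95% interval -0.19 to 0.27). The heavy subunit Nefh, which carries the phosphorylated side arms, read 9.35 and 9.30 against 9.46, 8.97, 9.71, 9.55 and 9.50. DHA replicate 2 was the lowest and DHA replicate 3 the highest array for Nefh, and 4 of 5 DHA arrays lay above both untreated arrays. The difference was 0.11 (SE 0.18, limma adjusted p 0.856).

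Trim9 had the largest difference of any member on 1 of its 3 tested probes. That probe (ILMN_1246118) read 6.01 and 6.27 in the untreated arrays and 5.32, 5.32, 5.25, 5.17 and 5.23 in the DHA arrays. All 5 DHA arrays lay below both untreated arrays, and the difference of -0.88 (SE 0.10) ranked 4 among 15284 probes by p with a limma adjusted p of 0.0968, which did not pass. In the DHA arrays the probe was near background, with detection p-values from 0.0251 to 0.0363, and a filter at a detection p under 0.01 in all 7 arrays left it out. It was already known from this same comparison, so it adds no independent evidence. The brightest Trim9 probe (ILMN_2452579) read 6.16 and 6.65 against 6.00, 6.15, 6.24, 6.28 and 6.49 and differed by -0.17 (SE 0.17). The remaining tested probe (ILMN_2800380) read 5.41 and 6.00 against 5.86, 5.20, 5.48, 5.10 and 5.75 and differed by -0.23 (SE 0.25), and the last was detected in 0 arrays. The groups overlapped on both of these. On the authors' normalized values, from which no background had been subtracted, the difference of the first probe was -0.25, and the probes disagree in size under either processing.

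**Figure D5:**
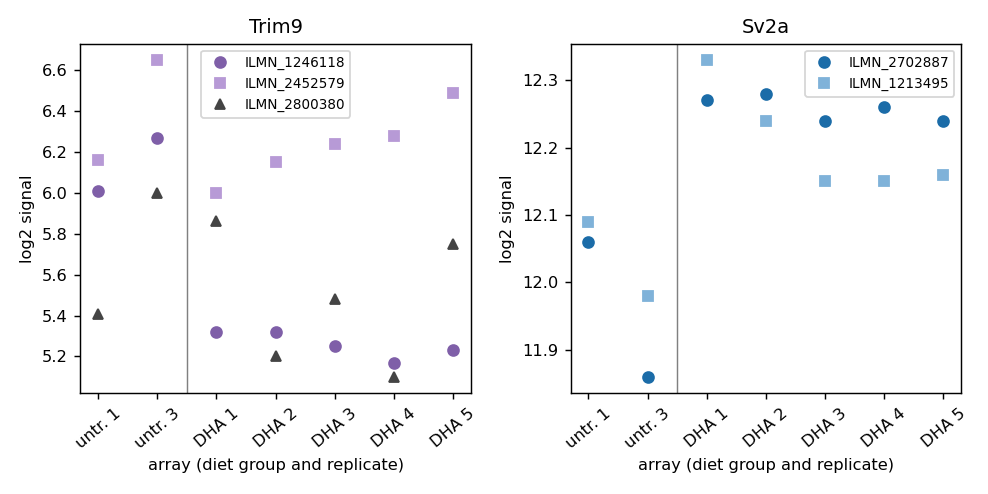
Log2 signal (y axis, starting above 0) of the 3 tested Trim9 probes and the 2 Sv2a probes in each array, with the untreated arrays left of the vertical line. Of the Trim9 probes only ILMN_1246118 separates the diets (6.01 and 6.27 against 5.17 to 5.32), and both Sv2a probes are higher in all 5 DHA arrays.

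Covariation of the members was computed over the 7 arrays. Among the 276 pairs of the 24 tested genes, Pearson's r was above 0 for 159, with a median of 0.089. By exact permutation tests, two-sided, 17 pairs had an unadjusted p under 0.05 for Pearson's r and 12 for Spearman's rho, and 0 passed after Benjamini-Hochberg adjustment over the 276 pairs, with a smallest adjusted value of 0.274 for r and 0.394 for rho. The smallest exact permutation p for r that 7 arrays allow is 0.000198, which times 276 is 0.0548, so no pair could have passed on its own. The marker pair Syp and Dlg4 had r = -0.317 (exact permutation p 0.486, adjusted 0.958) and rho = -0.144 (exact permutation p 0.76, adjusted 0.939). Without untreated replicate 1 and DHA replicate 3, r was -0.12, and on deviations from the diet group means it was -0.404.

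The synapsin pair had a negative coefficient that did not pass the adjustment. Syn1 and Syn2 had r = -0.891 (exact permutation p 0.00476, adjusted 0.37) and rho = -0.919 (exact permutation p 0.00714, adjusted 0.394). Without untreated replicate 3 and DHA replicate 4, r was -0.738, and on deviations from the diet group means it was -0.885. DHA replicate 4 was the highest array for Syn1 (13.69) and the lowest for Syn2 (11.78). The first of these coefficients kept the diet difference and the second kept DHA replicate 4, so neither removed both. Cplx2 and Nrxn3 had r = 0.861 (exact permutation p 0.0117, adjusted 0.557) and rho = 0.857 (exact permutation p 0.0238, adjusted 0.73), with r = 0.805 without DHA replicates 1 and 4 and 0.842 on deviations from the group means. On their brightest probes both genes were highest in untreated replicate 1, the array with raised striatal markers, and lowest in DHA replicate 4. Cplx2 was nearly as high in DHA replicate 2 (8.80, against 8.89), where the striatal markers stood at -0.057. The part of striatal tissue in this pair was not tested. Other pairs moved as separated sets of arrays, for which no r is given: Cplx1 and Dlg4 were both high in untreated replicate 1 and DHA replicates 3 and 5, and Rab3a and Camk2b were both high in untreated replicate 1 (13.50 and 13.19) and DHA replicate 5 (13.50 and 13.26).

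Other genes of the same machinery were examined on lists of their own. Of 138 other synaptic and axonal genes on 4 lists, 113 were on the array and 99 were tested; 58 were higher and 41 lower, with a median of 0.038. None of the 99 passed limma's test over all probes, 8 (8.08%) had an unadjusted p under 0.05, against 9.9% of all tested genes, and the groups did not overlap for 15.2%, against 17.4%.

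Among the other release genes, 21 of 34 were higher and 13 lower. The calcium sensor Doc2b (0.22, SE 0.11), the SNARE-recycling ATPase Nsf (0.17, SE 0.10) and rabphilin, Rph3a (0.19, SE 0.11), had the smallest p upward. Downward these were gamma-synuclein, Sncg (-0.33, SE 0.10, with -0.39 on its other probe), the GTPase Rab3b (-0.42, SE 0.13) and the vesicle chaperone Dnajc5 (-0.17, SE 0.12). All 5 DHA arrays lay above both untreated arrays for Doc2b and Nsf, with limma adjusted p of 0.541 and 0.577. They lay below both for Sncg and Rab3b, with limma adjusted p of 0.36 and 0.364. In the postsynaptic density 9 of 24 were higher and 15 lower. The exchange factor Iqsec2 (0.24, SE 0.13), spinophilin, Ppp1r9b (0.17, SE 0.09), and the PSD-95 paralogue Dlg2 (0.09, SE 0.10) stood at the upper end by p. The PDZ protein Lin7b (-0.31, SE 0.11, other probes -0.05 to -0.40), the inhibitory scaffold gephyrin, Gphn (-0.19, SE 0.11, other probes -0.06 and 0.12), and the glutamate receptor binder Grip1 (-0.24, SE 0.16, with -0.23 on its other probe) stood at the lower end.

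Among other adhesion genes 18 of 24 (75%) were higher, against 48.2% of all tested genes, and 6 lower, with a median of 0.054. The mean deviation of this list was -0.03 and -0.041 in the untreated arrays and from -0.027 to 0.093 in the DHA arrays, so the groups did not overlap, with DHA replicate 1 (-0.027) close to untreated replicate 1. The leucine-rich Lrrtm3 differed by 0.22 (SE 0.09), the cerebellins Cbln4 and Cbln2 by 0.26 (SE 0.13) and 0.21 (SE 0.12), the Lrrtm3 relative Lrrtm1 by -0.31 (SE 0.12), and the calsyntenins Clstn1 and Clstn3 by -0.57 (SE 0.26) and -0.03 (SE 0.08). In the axon and dendrite cytoskeleton 10 of 18 were higher and 8 lower. The ankyrins Ank2 (0.41, SE 0.13, other probes 0.24 and -0.04) and Ank3 (0.36, SE 0.12, other probe -0.06), which anchor membrane proteins to spectrin, and the dendritic microtubule protein Map2 (0.23, SE 0.08, other probes 0.35 and 0.37) were higher in every DHA array on their brightest probes. Their limma adjusted p were 0.36, 0.386 and 0.427. The neuronal intermediate filament internexin, Ina, a partner of the neurofilaments, differed by -0.30 (SE 0.15). Tubb3, a neuronal tubulin that only 2 of 5 DHA arrays detected, was at -0.29 (SE 0.29), and Map1b by -0.22 (SE 0.23), with other probes between -0.19 and 0.20.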

How the data were processed

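The deposited unnormalized table holds signal intensity per probe, per the file headers. Beside each intensity the authors deposited a detection p-value. Their normalized table is on the linear intensity scale. Software named in the submitters' processing notes was lumi 2.10.0 with R 2.15.0, and neither the normalization method nor the slide layout is given. The lowest deposited intensity per array was above 117, so no background had been subtracted. A further 2 per-sample columns match no sample and were not used. The normalized column of DHA replicate 5 equals its unnormalized signals, with a largest difference of 0.

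Here, normexp background correction from the detection p-values (offset 16, limma 3.58.1 in R 4.3.3) was followed by quantile normalization and log2, which removes differences in total RNA. Some dim probes differed more with this correction than without it. The Trim9 probe ILMN_1246118 differed by -0.88, against -0.26 without background correction, and the Vamp1 probe ILMN_3060333 by -0.44, against -0.12. The platform annotation gave 1 symbol to 23978 of the 25697 probes, no symbol to 1719 and several to 0; for 23962 probes the gene identifier was found in the RefSeq gene table, whose symbol was used. The test took in 15284 probes of 10448 genes, those detected (p under 0.05) on 2 or more arrays. The diets were compared with lmFit and eBayes, two-sided, Benjamini-Hochberg over all tested probes, threshold 0.05. The brightest probe stands for a gene. Named are members whose groups do not overlap, otherwise the smallest p in a group, members whose probes differ by over 0.3, and up to 3 genes per direction of each list of other synaptic genes. The scripts were tested on simulated data. Members and lists were chosen with earlier results of these data known. The alternatives were other background corrections, scaling, filters, variance models, the replicate number as a block, each array left out, and, added after seeing the data, DHA replicates 2 and 5 left out. Precision is limited by there being 7 arrays. The same-numbered arrays of both groups correlated by 0.00336 and 0.0339 in their deviations from the group means. With 2 untreated arrays these deviations mirror each other, so the values cannot decide whether the numbers mark pairs. Untreated replicate 1 and DHA replicate 2 correlated by 0.0724. No label says that a number marks a shared litter or day.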

Additional observations from a re-analysis of the deposited data

Results flagged for a closer look

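A single array stood apart from the other DHA arrays in 2 of the 38 member probes and class means examined, where chance flags about 5% of such groups of 5. Vamp2 was 13.11 log2 in DHA replicate 5, against 12.80 to 12.89 in the other DHA arrays. Syn2 was 11.78 log2 in DHA replicate 4, against 12.09 to 12.15 in the others. The causes were not tested.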

How the results depend on the processing

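No member probe passed the threshold under any of the alternatives run (0 in each). Over the whole array 0 probes passed, against 12 on the deposited values, 12 without background correction, 1 with normexp and an offset of 50, 52 with an intensity trend and robust variances, and 0 to 3 with 1 array left out, the 3 coming without untreated replicate 3, where the lone untreated array is assumed to vary like the DHA arrays. The release machinery median was -0.14 with arrays scaled to a common median, and -0.079 to 0.018 with 1 array left out. That scaling moved the median of all genes by -0.0065. It also lowered bright probes outside the class, such as Map2 (0.23 to 0.13) and Camk2b (-0.07 to -0.14), while the dimmer Dlg4 rose (0.03 to 0.06). Whether the shift was particular to the release machinery was not tested. The postsynaptic and adhesion median was -0.099 without untreated replicate 3 and up to 0.154 without untreated replicate 1, and the neurofilament median 0.023 to 0.14. With the replicate block, for which the shared numbers give only 2 pairs, 0 probes passed and the 3 medians were -0.074, -0.076 and 0.185. The first Trim9 probe stayed negative (-1.02 to -0.25, limma adjusted p 0.0649 to 0.623), as did the brightest Sv2a probe positive (0.19 to 0.39, 0.0956 to 0.762).

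Differences of many members changed sign without passing, among them the larger ones of Nrxn3, Nrgn and Camk2a. Those of Tubb3 and Map1b, which are not members but on the cytoskeleton list, did so too. The cause was not tested. With scaling to a common median Vamp2 was -0.049 and Syt4 -0.055, and with array weights Syt4 was -0.033. With the replicate block Vamp1 (ILMN_3137767) was 0.083, Vamp2 -0.037, Syt1 0.093, Syt4 -0.14, Cplx1 0.0018, Sv2b -0.087, Homer1 -0.038, Nrgn -0.11, Tubb3 0.13 and Map1b 0.055. Without DHA replicates 2 and 5 Vamp2 was -0.027, Syt1 0.033, Syt4 -0.052, Sv2b -0.056, Homer1 -0.0018, Camk2a -0.017 and -0.0068, and Nrgn -0.070. With 1 array left out the ranges were -0.14 to 0.033 for that Vamp1 probe, -0.038 to 0.050 for Vamp2, -0.079 to 0.018 for Syt1, -0.10 to 0.21 for Syt4, -0.22 to 0.12 for Cplx1, -0.021 to 0.089 for Sv2b, -0.13 to 0.20 for Dlg4, -0.030 to 0.11 for Homer1, -0.065 to 0.28 for Nlgn3, -0.73 to 0.013 and -0.51 to 0.024 for Nrxn3, -0.15 to 0.0048 for Camk2b, -0.043 to 0.12 for Nefm, and -0.41 to 0.078 and -0.53 to 0.072 for the other Trim9 probes.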
